A study of Mus musculus with 3 samples.

Results

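G protein-coupled receptors and purinergic receptors were compared between mouse liver and mouse spleen on 3 two-colour oligonucleotide arrays. The set was defined by gene symbol. A probe was taken if the platform annotation gave it 1 symbol that names a numbered Gpr gene or a receptor for nucleotides (P2rx, P2ry), adenosine (Adora), catecholamines (Adra, Adrb, Drd), serotonin (Htr), prostaglandin E2 (Ptger), sphingosine 1-phosphate (S1pr), lysophosphatidic acid (Lpar), proteases (F2r) or vasopressin (Avpr). This took 145 of 13738 singly named probes and 80 of 10698 genes. Of these, 121 probes and 71 genes had a ratio on all 3 arrays, against 9803 of all genes. The symbols used by the rule carry no measured value.

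Each array held a commercial liver total RNA labelled red (Cyanine-5) and a commercial spleen total RNA labelled green (Cyanine-3), both amplified in 1 round. Every array names 1 catalogue RNA per tissue. Strain, sex, age and number of animals are not in the labels, nor is the step that was repeated for each array. SDs and p-values below thus cover array-to-array spread, possibly technical only. No array had the dyes exchanged, so dye bias and tissue difference cannot be told apart. Values are log2 ratios of liver over spleen, given as mean ± SD over n = 3 arrays, and a gene with several probes is the mean of its probes. That direction is likely but not stated, and rests on marker genes. The liver plasma protein gene Ahsg read 4.04, 3.45 and 3.80 on arrays 1, 2 and 3, and the B-cell receptor gene Cd79b read -1.38, -1.60 and -1.16. The number of arrays limits the precision, and no channel intensity was used. A ratio near 0 can thus stand for equal levels or for a transcript at background in both RNAs.

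Receptors of this kind turn a signal outside the cell into a response inside it. Most cross the membrane in 7 passes and act through G proteins, which raise or lower cyclic AMP, release calcium through phospholipase C, or act on the cytoskeleton. The P2X receptors and the Htr3 subunits in the set are ligand-gated ion channels and use no G protein. In liver such receptors let hormones and nerves set glucose output, and in spleen they guide leukocyte migration, platelet activation and responses to damaged cells.

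By the mean of a gene's probes, few of the receptor genes differed strongly between the tissues. Past the test (limma, adjusted p under 0.05 over all genes) were 25 of 71, or 35.2%, against 52.8% of all 9803 genes. Toward liver 14 passed and toward spleen 11, where the shares of all genes were 25.3% and 27.4%. The 14 became 8 without array 1 and 8 without array 2. At 2-fold or more, 2 receptor genes were higher in liver (Avpr1a and P2ry4, against 9.21% of all genes) and 3 were higher in spleen (Gpr137b, P2ry14 and P2ry12, against 8.4% of all genes). In both directions together 17.6% of all genes reached it. The median ratio was 0.07 over the receptor genes and 0.02 over all genes, and the receptor median was 0.101 without array 1. The ratios were also small in size. Of the receptor genes 83.1% lay within 0.5 of 0 on the log2 scale, against 64.2% of all genes, and the median size was 0.18 for receptors and 0.31 for all genes. These shares describe the set, and no test of the set against other genes was made. More of the receptor genes were means of at least 2 probes, 48 of 71 against 2236 of 9803. Where probes disagree, the mean is smaller in size than the largest probe ratio. The part of this in the shares was not tested. Bulk RNA cannot tell fewer cells of a type from less RNA per cell.

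**Figure D1:**
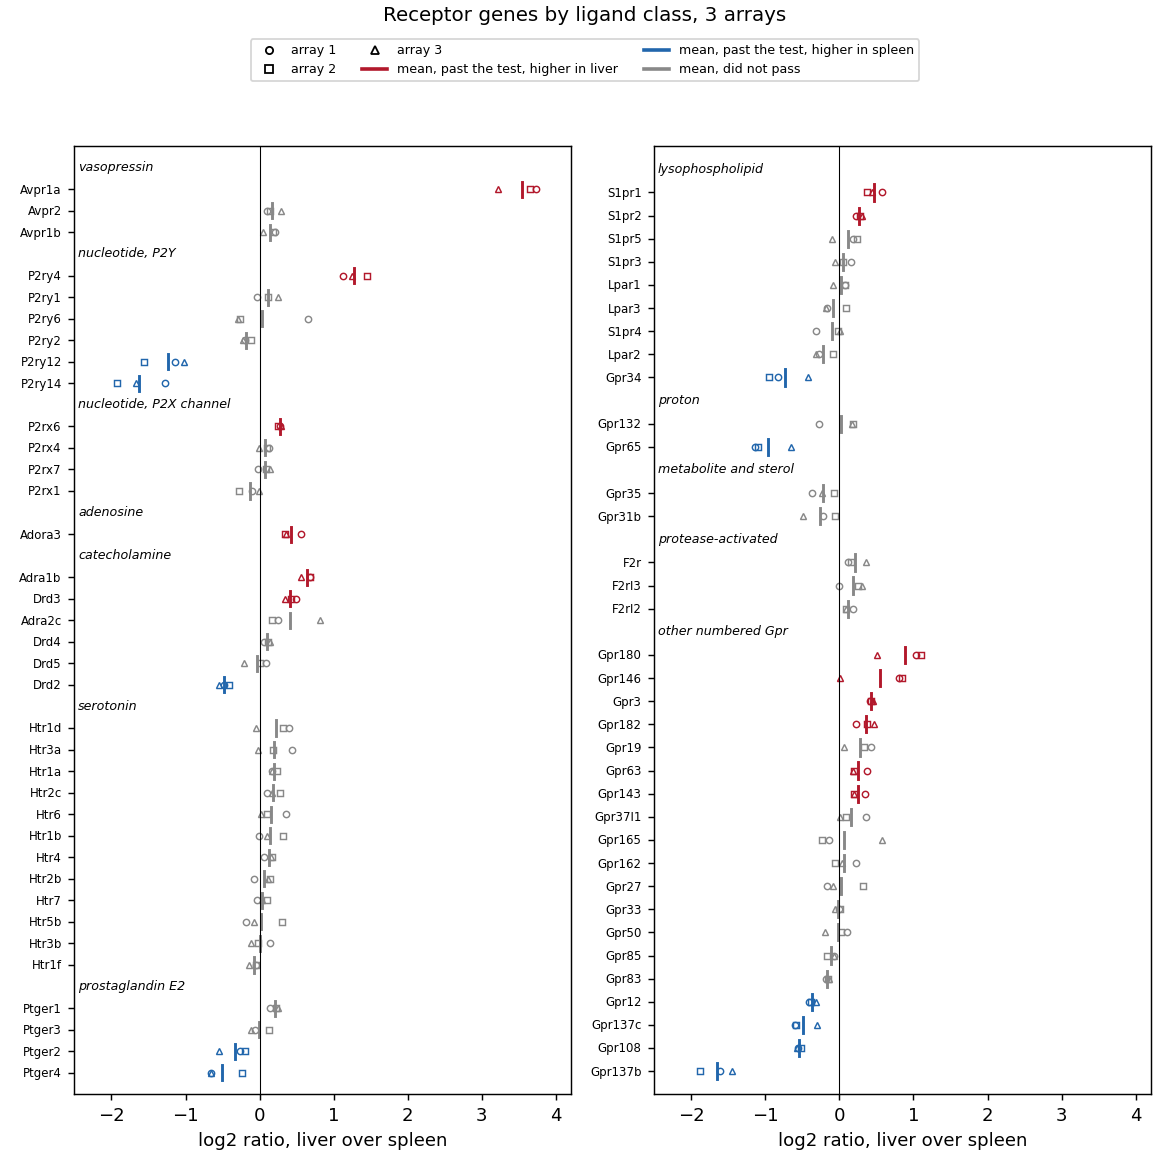
Each row is 1 of the 71 receptor genes, grouped by ligand class, with the log2 ratio of liver over spleen on the horizontal axis. Open symbols are the 3 arrays and the bar is their mean, red for genes past the test and higher in liver, blue for those higher in spleen and grey for those that did not pass. Avpr1a stands alone at 3.54, while all 12 serotonin receptor genes lie between -0.08 and 0.22.

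**Figure D2:**
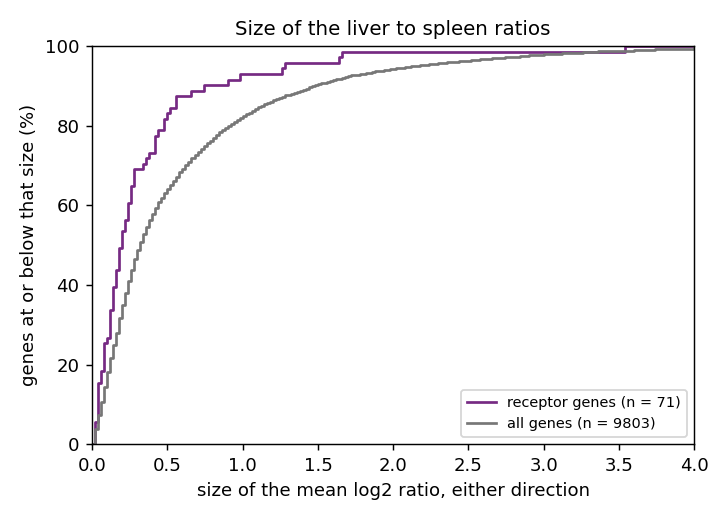
The share of genes (vertical axis, percent) whose mean log2 ratio is at or below a given size in either direction (horizontal axis), for the 71 receptor genes and for all 9803 genes. The receptor curve lies above the curve of all genes over most of the range, with a median size of 0.18 against 0.31, and its last step is Avpr1a at 3.54.

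Among the 3 measured vasopressin receptor genes, 1 was much higher in liver (33.3% past the test, against 52.8% of all genes). Avpr1a encodes the V1a receptor, which couples to calcium release and in hepatocytes stimulates glycogen breakdown. It read 3.74, 3.66 and 3.21 on arrays 1, 2 and 3. All 3 arrays lay far above 0, array 3 being the lowest. The mean of 3.54 ± 0.28 corresponds to an 11.6-fold higher signal in liver (adjusted p = 2.00e-05), and it ranked 112 of the 9803 genes toward liver. Both of its probes showed it, at 3.67 ± 0.26 and 3.40 ± 0.31. The related receptors were near 0. The kidney receptor gene Avpr2 averaged 0.17 ± 0.10 and the pituitary receptor gene Avpr1b 0.14 ± 0.09, and neither passed. Of the Avpr1b probes, 1 averaged 0.35 ± 0.11 and passed the probe-level test, and the other averaged -0.06 ± 0.11.

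The P2Y receptors, which bind extracellular nucleotides and couple to G proteins, included genes higher in each tissue. Of 6 measured genes, P2ry4 was higher in liver, P2ry12 and P2ry14 were higher in spleen, and 3 did not pass. The share past the test was 50%, against 52.8% of all genes. P2ry4, a receptor for UTP, read 1.13, 1.45 and 1.25 on the 3 arrays, all above 0. Its mean of 1.28 ± 0.16 is a 2.43-fold higher signal in liver (adjusted p = 0.00019), but it came from probes that disagreed. One read 2.42, 3.05 and 2.30, and the other -0.15, -0.14 and 0.20. P2ry14, a receptor for UDP-glucose found on immune cells, read -1.27, -1.93 and -1.66 on the arrays. All were below 0, and the mean of -1.62 ± 0.33 is a 3.08-fold higher signal in spleen (adjusted p = 0.000346). P2ry12, the ADP receptor of platelets at which clopidogrel acts, read -1.14, -1.56 and -1.03. Again no array came near 0, and the mean of -1.24 ± 0.28 is a 2.36-fold higher signal in spleen (adjusted p = 0.00061). Both probes of each gene passed toward spleen. Those of P2ry14, annotated to the same transcript record, were at -2.61 ± 0.46 and -0.64 ± 0.24, and those of P2ry12 at -1.66 ± 0.30 and -0.82 ± 0.27.

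The other platelet ADP receptor gene, P2ry1, averaged 0.11 ± 0.14 and did not pass. Nor did P2ry2, for ATP and UTP, at -0.18 ± 0.06, or P2ry6, for UDP, at 0.03 ± 0.54. P2ry6 read 0.66 on array 1 and -0.26 and -0.29 on arrays 2 and 3, so its arrays lay on opposite sides of 0. In the RefSeq gene table P2ry14, P2ry13 and P2ry12 lie in that order on chromosome 3, inside the gene Med12l. P2ry13, a further ADP receptor, read 0.11 on array 1 and 0.25 on array 3, had no ratio on array 2 and was not tested. Its values lay on the other side of 0 from its neighbours.

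The promoters of the receptor genes with the largest ratios are shown because these genes moved in opposite directions, with Gpr65, a proton-sensing receptor described below, as another spleen example. No promoter of Gpr137b was in the table used. Each run is the 250 bases before the most upstream annotated start, written 5′ to 3′ on the gene's strand (RefSeq, GRCm38.p6). The windows are chr10:122448249-122448498 (plus strand) for Avpr1a, chrX:100594870-100595119 (minus) for P2ry4, chr3:59262986-59263235 (minus) for P2ry12, chr3:59153493-59153742 (minus) for P2ry14 and chr12:98268385-98268634 (plus) for Gpr65. P2ry14 has 4 annotated starts and the others 1. Capitals mark matches to GAGGAA, the core of the motif bound by the myeloid and B-cell factor PU.1, or to its reverse complement TTCCTC.
Avpr1a: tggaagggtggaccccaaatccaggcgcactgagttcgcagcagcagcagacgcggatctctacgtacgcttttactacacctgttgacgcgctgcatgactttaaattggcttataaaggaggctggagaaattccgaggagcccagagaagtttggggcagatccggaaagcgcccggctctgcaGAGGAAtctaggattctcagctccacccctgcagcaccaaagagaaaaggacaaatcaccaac
P2ry4: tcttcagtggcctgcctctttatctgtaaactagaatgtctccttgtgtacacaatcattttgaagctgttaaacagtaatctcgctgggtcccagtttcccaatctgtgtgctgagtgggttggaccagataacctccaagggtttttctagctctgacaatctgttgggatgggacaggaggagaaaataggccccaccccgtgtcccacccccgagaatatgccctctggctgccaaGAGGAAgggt
P2ry12: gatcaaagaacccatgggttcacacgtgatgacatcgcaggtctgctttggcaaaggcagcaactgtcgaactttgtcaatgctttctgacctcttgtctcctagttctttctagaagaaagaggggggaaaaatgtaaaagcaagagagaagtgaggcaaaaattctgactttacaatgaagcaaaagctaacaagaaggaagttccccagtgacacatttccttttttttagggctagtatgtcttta
P2ry14: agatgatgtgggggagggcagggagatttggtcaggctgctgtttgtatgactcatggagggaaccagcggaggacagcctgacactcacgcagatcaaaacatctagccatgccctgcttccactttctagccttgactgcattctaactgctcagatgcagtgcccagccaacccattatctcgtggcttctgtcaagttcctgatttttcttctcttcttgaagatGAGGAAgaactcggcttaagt
Gpr65: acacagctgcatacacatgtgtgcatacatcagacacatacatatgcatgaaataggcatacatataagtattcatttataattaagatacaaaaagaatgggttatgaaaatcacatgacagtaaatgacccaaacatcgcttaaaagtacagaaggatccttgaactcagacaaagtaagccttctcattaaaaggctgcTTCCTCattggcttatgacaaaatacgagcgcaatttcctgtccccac
The match began 63 bases before the start in Avpr1a, 10 in P2ry4, 21 in P2ry14 and 48 in Gpr65, where it was on the reverse strand. P2ry12 had none. The letters thus occurred upstream of both liver-high genes and of 2 of the 3 spleen-high genes shown. They occur by this search in 23.3% of all 32851 windows of the same length, where every annotated start of a gene is counted. Of the 58 measured receptor genes in the table, 19 (32.8%) had them, counting only the first listed start of each gene. These shares thus rest on unlike units. The liver motif letters GTTAAT (HNF1) and TGTTTAC (forkhead factors), searched on both strands, matched none of the 5 windows, against 6.43% and 3.17% of all windows. A match is a description of letters and not a binding site.

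The ATP-gated P2X channels differed little. Of 4 measured genes, P2rx6 alone passed, toward liver (25%, against 52.8% of all genes in either direction). It read 0.28, 0.25 and 0.29 on the arrays. These probe averages were close together and above 0, with a mean of 0.27 ± 0.02 (adjusted p = 0.0264), a 1.21-fold difference. Each probe alone spread more over the arrays. One was at 0.26 ± 0.15 and did not pass the probe-level test, and the other was at 0.29 ± 0.13 and passed. The gene's call was lost whichever array was left out (adjusted p from 0.0806 to 0.108). P2rx4 and P2rx7, channels of macrophages and other leukocytes, both averaged 0.07, with SDs of 0.07 and 0.08. P2rx1, a channel of platelets and smooth muscle, averaged -0.13 ± 0.14 and did not pass. Its probes stood on opposite sides, 1 at -0.54 ± 0.22, past the probe-level test toward spleen, and 1 at 0.28 ± 0.23.

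The measured adenosine receptor gene was Adora3, whose product lowers cyclic AMP. It read 0.56, 0.35 and 0.35 on the arrays, all above 0, and averaged 0.42 ± 0.12 (adjusted p = 0.00943), 1.34-fold higher in liver. Without array 1 it no longer passed (adjusted p = 0.0545). Another of its probes, listed on arrays 1 and 2, read 0.22 on both, and a further one read -0.43 on array 2.

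Catecholamine receptor genes moved modestly in both directions. Of 6 measured, 2 passed toward liver and 1 toward spleen (50% in either direction, against 52.8% of all genes). Adra1b encodes the alpha-1B adrenergic receptor, through which adrenaline raises calcium in hepatocytes. It read 0.67, 0.69 and 0.56, all above 0, and its mean of 0.64 ± 0.07 is a 1.56-fold higher signal in liver (adjusted p = 0.00128). Of its probes, 1 averaged 1.31 ± 0.07 and passed, and the other averaged -0.02 ± 0.16. The dopamine receptor gene Drd3 averaged 0.42 ± 0.07 and also passed toward liver (adjusted p = 0.00694), from probes at 0.69 ± 0.03, which passed, and 0.15 ± 0.12, which did not. Drd2, a dopamine receptor that lowers cyclic AMP, read -0.48, -0.41 and -0.55, all below 0, with a mean of -0.48 ± 0.07 (adjusted p = 0.00398), 1.39-fold higher in spleen. Without array 2 a second Drd2 probe, at 0.67 and -0.01 on arrays 1 and 3, entered the mean, which was then -0.09 and did not pass (adjusted p = 0.616). Adra2c read 0.25, 0.16 and 0.81 and did not pass (adjusted p = 0.0592), array 3 standing apart from the others. Drd4 and Drd5 averaged 0.11 ± 0.04 and -0.04 ± 0.15.

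No serotonin receptor gene passed the test, where 52.8% of all genes did. The 12 measured genes, 10 of them coupled to G proteins and 2 (Htr3a, Htr3b) channel subunits, averaged between -0.08 for Htr1f and 0.22 for Htr1d, with a median of 0.13, or 0.078 without array 2. Without array 3, Htr1d averaged 0.35 and passed toward liver (adjusted p = 0.0359). Htr2b, the serotonin receptor studied in liver regeneration in mice, averaged 0.06 ± 0.11.

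Prostaglandin E2 receptor genes that passed were higher in spleen. Ptger4 and Ptger2, which raise cyclic AMP in leukocytes, passed among 4 measured (50%, against 52.8% of all genes in either direction). Ptger4 read -0.65, -0.24 and -0.65, all below 0 with array 2 the nearest to it. The mean of -0.51 ± 0.24 is a 1.43-fold higher signal in spleen (adjusted p = 0.0123). Of its probes, 1 was at -1.04 ± 0.44 and the other at 0.02 ± 0.28. Ptger2 averaged -0.33 ± 0.19 (adjusted p = 0.0348), with 2 of its 3 probes past the probe-level test. Ptger4 did not pass without array 1 (adjusted p = 0.0611), and Ptger2 did not pass whichever array was left out (adjusted p from 0.0603 to 0.117). The calcium-coupled Ptger1 averaged 0.20 ± 0.06 and Ptger3, which lowers cyclic AMP, -0.01 ± 0.13, and neither passed.

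Receptors for lysophospholipids, lipid messengers in blood and lymph, were mixed. Of 9 measured, S1pr1 and S1pr2 passed toward liver, Gpr34 passed toward spleen and 6 did not pass. The share past the test was 33.3%, against 52.8% of all genes. S1pr1, required for lymphocytes to leave lymphoid organs and also a receptor of endothelium, read 0.58, 0.37 and 0.44. All arrays were above 0, and the mean of 0.47 ± 0.10 is a 1.38-fold higher signal in liver (adjusted p = 0.00553). Its probes differed, 1 at 1.01 ± 0.36 and the other at -0.08 ± 0.27. S1pr2 averaged 0.27 ± 0.04 (adjusted p = 0.0282), from probes at 0.57 ± 0.04 and -0.03 ± 0.12, and did not pass whichever array was left out (adjusted p from 0.0876 to 0.107). Gpr34, a receptor for lysophosphatidylserine on myeloid cells, read -0.83, -0.95 and -0.43. All arrays were below 0, array 3 the nearest, and the mean of -0.73 ± 0.27 is a 1.66-fold higher signal in spleen (adjusted p = 0.00441). Both Gpr34 probes passed, at -1.20 ± 0.56 and -0.27 ± 0.01, although they are annotated to the same transcript record. S1pr3, S1pr4, S1pr5, Lpar1, Lpar2 and Lpar3 averaged between -0.22 and 0.11. Lpar2 was the lowest, and 1 of its probes passed toward spleen at -0.46 ± 0.20 while the other was at 0.01 ± 0.09. S1pr4 and S1pr5, which mark lymphocytes and natural killer cells, averaged -0.11 ± 0.18 and 0.11 ± 0.18.

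Of the proton-sensing receptors, Gpr65, found on lymphocytes and macrophages, was higher in spleen. It read -1.14, -1.10 and -0.65, all below 0, and averaged -0.96 ± 0.27, a 1.95-fold difference (adjusted p = 0.00149). Its probes read differently, 1 at -2.22, -2.19 and -1.11 and the other at -0.05, -0.01 and -0.19. Gpr132, a related receptor of lymphocytes and macrophages, averaged 0.03 ± 0.26 and did not pass. Among receptors for metabolites, Gpr35 and Gpr31b averaged -0.23 ± 0.15 and -0.26 ± 0.22 and did not pass.

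None of the 3 measured protease-activated receptor genes passed, where 52.8% of all genes did. F2r, the thrombin receptor PAR1, averaged 0.20 ± 0.13, F2rl2 (PAR3) 0.12 ± 0.05 and F2rl3 (PAR4), a platelet thrombin receptor in mice, 0.18 ± 0.17. P2ry12, also a platelet receptor, was at -1.24.

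Of the other 19 numbered Gpr genes, 6 passed toward liver and 4 toward spleen (52.6% in either direction, against 52.8% of all genes). Gpr137b, a lysosomal membrane protein of the 7-pass type, had the lowest ratio of the set. It read -1.62, -1.88 and -1.45, all far below 0. The mean of -1.65 ± 0.22 is a 3.14-fold higher signal in spleen (adjusted p = 0.000128), from 1 probe. Its relative Gpr137c averaged -0.49 ± 0.17 (adjusted p = 0.00758) and Gpr108, a 7-pass protein of the Golgi, -0.55 ± 0.03 (adjusted p = 0.00192), also from 1 probe each. The fourth was Gpr12, at -0.37 ± 0.05 (adjusted p = 0.0093), a receptor that raises cyclic AMP without added ligand. Its probes passed in opposite directions, 1 at -1.07 ± 0.13 and the other at 0.33 ± 0.08, and its call was lost without array 1 or array 2 (adjusted p = 0.0545 and 0.0508). The closely related Gpr3 averaged 0.43 ± 0.02 (adjusted p = 0.00496) toward liver. Of the Gpr3 probes, 1 at 0.59 ± 0.11 passed the probe-level test and the other, at 0.27 ± 0.15, did not.

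Gpr180, a 7-pass membrane protein, had the largest ratio toward liver among these 19 genes. It read 1.03, 1.11 and 0.51, with array 3 below the other pair and all above 0. Its mean of 0.88 ± 0.33 is a 1.84-fold higher signal in liver (adjusted p = 0.00343), from 1 probe. Gpr146, which in mice affects plasma cholesterol through hepatocytes, read 0.80, 0.85 and 0.01. It averaged 0.55 ± 0.47 and lay at the threshold (adjusted p = 0.0499), with array 3 at about 0. Gpr182, an endothelial receptor that binds chemokines, averaged 0.36 ± 0.12 (adjusted p = 0.0162), with both probes past the probe-level test. Gpr63 and Gpr143, a receptor of melanosomes, averaged 0.25 each, with adjusted p = 0.0473 and 0.0456. Gpr146, Gpr63 and Gpr143 each rested on 1 tested probe. In the probe-level fit these probes did not pass (adjusted p = 0.0510, 0.0554 and 0.0541). The calls of Gpr146, Gpr182, Gpr63 and Gpr143 were each lost without at least 2 of the arrays taken out in turn, with adjusted p up to 0.215. The remaining 9 genes averaged between -0.16 (Gpr83) and 0.27 (Gpr19) and did not pass. Without array 3, Gpr19 averaged 0.38 and passed toward liver (adjusted p = 0.0291). Gpr165, also among the 9, read 0.57 on array 3 and was below 0 on the others.

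Probes of a gene often differed in call, and this was not particular to the receptor genes. Of the 121 receptor probes, 15 passed toward liver and 17 toward spleen in a probe-level fit, against 24.1% and 26.6% of all probes (50.7% in either direction). Of the 71 genes, 48 had at least 2 probes measured on all arrays. In 19 of these (39.6%) at least 1 probe passed the probe-level test, against 69.4% of the 2236 such genes on the array. In 5 of the 48 (10.4%) every probe passed in the same direction, against 25.4% of all such genes. The 5 were Avpr1a and Gpr182 toward liver and Gpr34, P2ry12 and P2ry14 toward spleen. In the other 14 genes the probes differed in call, as for P2ry4, Adra1b, S1pr1, Gpr65 and Ptger4 above. Over all such genes, this group is the part of the 69.4% that lies outside the 25.4%. A difference in call need not be a wide gap, since the P2rx6 probes averaged 0.29 and 0.26. In 1 of the 14, Gpr12, the probes passed in opposite directions, for which no share over all genes was computed. The median distance between the outermost probes of a gene was 0.25 over the receptor genes and 0.33 over all genes with several probes.

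**Figure D3:**
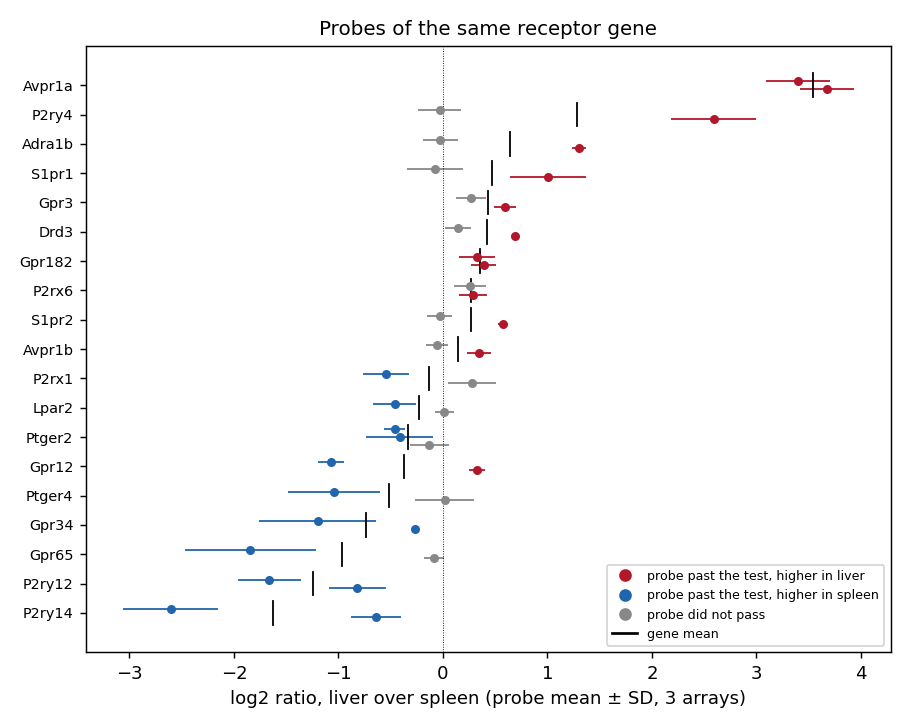
Each point is the mean log2 ratio of liver over spleen of 1 probe, with its SD over 3 arrays, for the 19 receptor genes with several probes of which at least 1 passed. The black bar is the gene's mean. In P2ry4 the probes stand at 2.59 and -0.03 and in Gpr65 at -1.84 and -0.09, whereas both Avpr1a probes lie above 3.

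Genes that act beside or below the receptors were taken from 11 lists. Together 98 of 142 listed genes were measured, and 21 passed toward liver and 28 toward spleen (50.0%, against 52.8% of all genes). Their median was 0.04 with all arrays, -0.0187 without array 2 and 0.0171 without array 3. Of 15 G protein alpha subunits, 3 passed toward liver and 1 toward spleen (26.7% in either direction, against 52.8% of all genes). Gna11, which couples receptors to phospholipase C, averaged 0.65 ± 0.04, Gna13 0.53 ± 0.11, and Gnai2, the inhibitory subunit abundant in leukocytes, -0.71 ± 0.33. Of 17 beta and gamma subunits, 3 passed toward liver and 8 toward spleen (64.7% in either direction, against 52.8% of all genes). The 8 included every one of the 5 beta subunit genes, whose means were modest, between -0.57 and -0.27. Gng10, Gng2 and Gngt2 averaged -1.48 ± 0.17, -1.42 ± 0.30 and -1.05 ± 0.04, and Gngt1 0.71 ± 0.09.

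The RGS proteins, which switch G proteins off, held the largest ratio in each direction among the genes of these 11 lists. Of 17 measured, 3 passed toward liver and 8 toward spleen (64.7% in either direction, against 52.8% of all genes), with a median of -0.34. Rgs16 read 3.28, 3.47 and 2.88 and averaged 3.21 ± 0.30, 9.26-fold higher in liver (adjusted p = 2.78e-05). Rgs18, an RGS protein of platelets and megakaryocytes, averaged -2.15 ± 0.15, 4.44-fold higher in spleen, and the lymphocyte gene Rgs1 -1.99 ± 0.10, 3.97-fold higher in spleen. Of 5 receptor kinases and arrestins, Grk6 alone passed (20%, against 52.8% of all genes), at -0.72 ± 0.14. Of 5 adenylyl cyclases, which make cyclic AMP, Adcy9 alone passed (20%, against 52.8% of all genes), at 1.28 ± 0.07. Of 3 genes of the phospholipase C pathway, 2 passed (66.7%, against 52.8% of all genes). These were the inositol trisphosphate receptors Itpr2 and Itpr3, toward spleen, at -1.05 ± 0.05 and -0.97 ± 0.04. Of 7 cyclic AMP phosphodiesterases, 3 passed (42.9%, against 52.8% of all genes). Pde8a at 1.26 ± 0.25 and Pde4a at 0.45 ± 0.18 passed toward liver and Pde4b at -0.70 ± 0.17 toward spleen.

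Genes that make or remove the ligands were also mixed. Of 10 for nucleotides and adenosine, 3 passed in each direction (60% in either direction, against 52.8% of all genes). Entpd5, a nucleoside diphosphatase of the endoplasmic reticulum, averaged 2.27 ± 0.78 and the nucleoside carrier Slc29a1 1.52 ± 0.14. Entpd1, the CD39 enzyme that breaks down extracellular ATP and ADP, averaged -1.54 ± 0.13, on the spleen side with P2ry12 and P2ry14. Of 14 listed genes of lysophospholipid handling, only 5 were measured. All 5 passed, 3 toward liver and 2 toward spleen, where 52.8% of all genes passed in either direction. The sphingosine kinases stood apart, Sphk2 at 0.76 ± 0.05 and Sphk1 at -0.82 ± 0.16, and the lipid phosphatase Plpp3 was at 0.80 ± 0.29. Of 8 prostaglandin genes, 3 passed (37.5%, against 52.8% of all genes). The synthases Ptges2 at 1.13 ± 0.11 and Ptges at 0.62 ± 0.28 passed toward liver, and the thromboxane synthase Tbxas1 at -0.82 ± 0.17 toward spleen. Of 6 monoamine genes, 2 passed (33.3%, against 52.8% of all genes). The decarboxylase Ddc averaged 1.51 ± 0.32, toward liver. The serotonin carrier Slc6a4, by which platelets take up serotonin, averaged -1.27 ± 0.26, toward spleen, while no serotonin receptor passed.

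**Figure D4:**
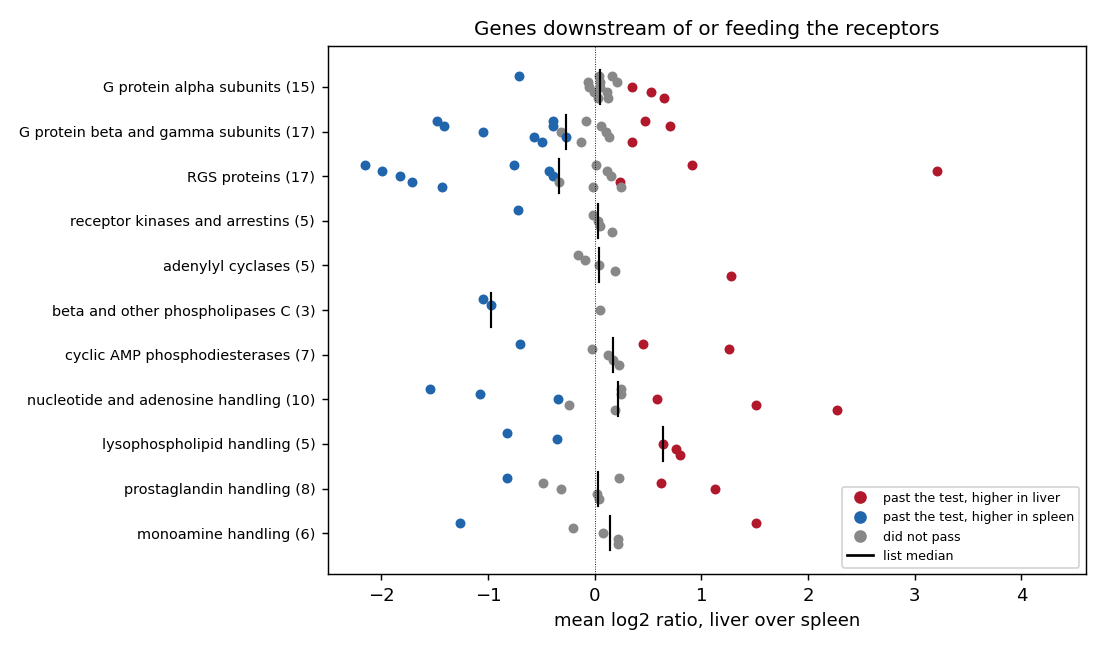
Each point is the mean log2 ratio of liver over spleen (horizontal axis) of 1 gene in 1 of the 11 lists, with the number of measured genes in brackets, red for genes past the test and higher in liver, blue for those higher in spleen and grey for those that did not pass. The black bar is the list's median. The RGS list reaches from -2.15 (Rgs18) to 3.21 (Rgs16).

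Cell type markers differed between the RNAs beside these receptors. Of all genes, 25.3% passed toward liver and 27.4% toward spleen. The direction of the ratio was read from Ahsg and Cd79b, which are among these markers. The side on which the markers fell is thus no independent support for that direction. Of 5 platelet and megakaryocyte markers, 4 passed toward spleen, at -1.52 (Itga2b) to -0.85 (Gp9), and Gp1bb, at -0.29, did not pass. Of 5 macrophage markers, 4 passed toward spleen and the Kupffer cell marker Clec4f, at 1.62, toward liver. Of 4 measured B-cell markers 3 passed toward spleen, of 4 T-cell markers 2, and of 5 neutrophil markers 3. The others of these lists, Ms4a1, Cd3e, Cd4, Elane and Ngp, did not pass, at -0.22 (Ngp) to 0.13 (Cd3e). All 4 measured markers of red cell precursors passed toward spleen, at -3.04 to -0.57. Of 4 endothelial markers, Tek passed toward spleen at -0.34 and the others lay between 0.05 and 0.20. Of 6 hepatocyte markers, Ahsg alone had a ratio on all arrays, at 3.76. The part of cell composition in the receptor ratios was not tested.

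For 9 receptor genes no probe had ratios on the full set of arrays, and these were not tested. Gpr89, a pH-regulating membrane protein of the Golgi, read -0.32 on array 1 and 1.06 on array 2, on opposite sides of 0. Drd1 read 0.22 and 0.40 on arrays 1 and 2. On arrays 2 and 3, Gpr173 read 0.38 and 0.23, Gpr37 0.37 and -0.07, Gpr45 -0.15 and 0.19, and Gpr84, a receptor of myeloid cells, 0.03 and -0.12. Htr2a read 0.07 on array 2 alone. The Htr5a probes read 0.23 and 0.33 on arrays 1 and 2, and 0.16 and 0.08 on arrays 2 and 3. P2ry13 is given above.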

How the data were processed

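Liver and spleen RNA were measured together on 3 two-colour arrays. The deposited table gives 1 log2 ratio per probe and array for 16281 probes. Its log base and limit were read from the values: the highest is 6.64 on the log2 scale, or 100-fold. The sources used here do not give the authors' background correction, dye normalization or ratio direction. An exact 0 (1414, 1098 and 1137 probes on arrays 1, 2 and 3) was taken as no measurement. Symbols came from the platform annotation and none changed when checked by Entrez number in a RefSeq table (13694 probes found).

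Probes measured on all 3 arrays were averaged per gene. All 9803 genes were fitted with limma 3.58.1 in R 4.3.3 (intercept only, moderated variance, two-sided, Benjamini-Hochberg adjustment), and the 12259 singly named probes measured on all arrays likewise. A call is an adjusted p under 0.05. The fit was tested on simulated data, with normal noise and 200 genes shifted per run, far fewer than the 5174 called here. It called 23.9% of shifts of 0.5, 65.4% of shifts of 1 and 91.9% of shifts of 2 on the log2 scale. False calls were 2.52% of its calls. A gene that did not pass can thus still differ, and the rates may be unlike those in the real data. The members, ligand classes, gene lists and markers were chosen with earlier results of these data known. Every receptor gene could be named. Each list is represented by its 3 largest called genes plus the largest called the other way. Alternatives covered probe averaging, centring, scaling, exact 0, probes on 2 arrays, robust variance, a 2-fold limit and leaving out each array. Promoters came from RefSeq (GRCm38.p6).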

Additional observations from a re-analysis of the deposited data

How the results depend on the processing

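No gene's call reversed under the gene-level alternatives, but in the fit of single probes 1 Gpr12 probe passed toward liver, opposite to the gene. That fit gives no value per gene. Of the 25 calls, 14 held without each array in turn and under every other gene-level setting that tests all 9803 genes or more, except the 2-fold limit. No paired analysis was possible because there is 1 group of arrays, each holding both RNAs. The 2-fold limit left 2 and 3 receptor genes (liver, spleen), 7 and 12 signalling genes, 1 other Gpr gene toward spleen, 1 vasopressin and 1 P2Y gene toward liver and 2 P2Y genes toward spleen, and 0 in the adenosine, catecholamine, lysophospholipid, P2X, prostaglandin and proton classes and in other Gpr genes toward liver. Counting probes gave 17 receptor probes toward spleen, 32 and 45 signalling probes, 3 lysophospholipid, 1 P2X and 4 P2Y probes toward spleen and 3 vasopressin probes toward liver, with medians of 0.14 (catecholamine) and 0.12 (P2X). Taking each gene's largest probe gave 2 lysophospholipid and 1 P2X gene toward spleen, 3 other Gpr and 2 vasopressin genes toward liver, and medians of 0.14 (all receptors), 0.37 (catecholamine), 0.18 (P2X) and -0.37 (prostaglandin). Centring arrays gave 3 other Gpr genes toward liver and a P2X median of 0.0476, or 0.0483 when also scaled. Keeping exact 0 as 0 gave 0 adenosine and 3 other Gpr genes toward liver, 0 catecholamine and 1 prostaglandin gene toward spleen, and medians of 0.20 (catecholamine) and 0.0348 (P2Y). Admitting probes on 2 arrays gave 0 catecholamine genes toward spleen and a P2Y median of 0.0348. After the data were seen, 3 alternatives were added, 1 of them giving the values of single probes. Genes with every probe called numbered 2 and 3 among those with several probes, and genes with 1 probe gave 2 and 4 calls, both from fewer genes. Leaving out each array gave 8 to 11 receptor genes toward liver. By class it gave 0 to 1 adenosine, 1 lysophospholipid, 0 P2X, 2 to 4 other Gpr and 0 to 1 serotonin genes toward liver, and 0 to 1 catecholamine and 0 to 1 prostaglandin genes toward spleen. Medians ranged from -0.22 to 0.11 (P2Y) and 0.0786 to 0.13 (other Gpr). Except where stated above, the causes were not tested. Without intensities, signal over background is unknown.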

Other observations

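Further probes of tested receptor genes had a ratio on some arrays only and entered no mean. A Ptger3 probe read -1.02 on array 1 and 0.00497 on array 2. Probes of P2ry2 read 0.40 and 0.04 on arrays 1 and 2, and -0.06 and -0.29 on arrays 1 and 3, while the tested P2ry2 probe was at -0.18. An Lpar3 probe read 0.39 and 0.48 on arrays 1 and 2, against -0.17 and 0.08 for the tested probe there. An S1pr3 probe read 0.49 on array 2, and a Gpr143 probe 0.36 on array 1. Among receptor genes, Pearson's r across the 71 genes was 0.941 for arrays 1 and 2, 0.897 for 1 and 3, and 0.919 for 2 and 3. These points share the 2 RNAs and describe the arrays only.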
